A study of Mus musculus with 22 samples.

Results

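The killing machinery of cytotoxic lymphocytes was followed through 10 genes in wild-type and T cell-deficient mice carrying MC38 tumors. The list was set by what the genes do, with no measured value in its rule but with earlier results of these data known. It holds the granzymes Gzma, Gzmb, Gzmc, Gzmd, Gzme, Gzmf and Gzmk, the pore-forming protein gene Prf1, the granule membrane protein gene Nkg7 and the death ligand gene Fasl. All 10 were found in the table of 46882 genes. The question was which share of their RNA remained in tumors of mice that lack T cells.

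RNA was measured in 16 libraries, of which 12 are tumors. MC38 is a mouse colon adenocarcinoma cell line of C57BL/6 origin. It was sequenced before injection (day 0, 2 libraries) and after subcutaneous growth in C57BL/6N wild-type mice (day 23 and day 46, 3 libraries each) and in RAG1-/- mice of the strain B6.129S7-Rag1tm1Mom/J (day 13 and day 23, 3 libraries each). Normal skin of day 23 gave 2 libraries. The mice were females of 8 to 12 weeks, the skin came from wild-type C57BL/6N mice, and no drug or antibody is labelled for any of these groups. Each tumor library was made from a piece of 1 tumor, while nothing says whether the 2 MC38 samples are separate cultures. The p-values measure the spread between these samples. RAG1 is needed to assemble antigen receptors, so RAG1-/- mice, which carry a germline deletion, lack mature T and B cells but keep natural killer (NK) cells and myeloid cells.

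Granzymes are serine proteases that cytotoxic T cells and NK cells store in granules. Perforin, the product of Prf1, opens the target cell membrane for them, Nkg7 takes part in the release of granules, and Fas ligand, the product of Fasl, kills through a receptor instead. Granzyme A and granzyme B are the best studied members. Granzymes C to G are rodent genes that lie beside Gzmb and are made mainly by strongly stimulated lymphocytes.

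Of the 7 granzymes in the list, 5 lie in 1 cluster. In the GENCODE annotation of GRCm38 (the mm10 build) the cluster spans 144.6 kb of chromosome 14, from 56117626 to 56262260. It holds 7 granzyme genes, Gzme, Gzmd, Gzmg, Gzmn, Gzmf, Gzmc and Gzmb in this order, all on the minus strand. Gzma (113093825 to 113100981) and Gzmk (113171608 to 113225908) lie near each other on chromosome 13, on the minus strand. Prf1 lies on chromosome 10 (61297833 to 61304680, plus strand), Nkg7 on chromosome 7 (43437073 to 43438249, plus strand) and Fasl on chromosome 1 (161780689 to 161788495, minus strand).

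The promoters show how alike Gzmc to Gzmf are, while those of Gzma and Gzmb were not aligned with them. RefSeq promoters (GRCm38.p6) were found for 10 of 10 genes, each from 250 bases before to 50 bases after the start. Aligned over the 250 bases before the start, Gzmd and Gzme matched at 95.2% of these bases. The other pairs among Gzmc, Gzmd, Gzme, Gzmf and Gzmg matched at 76.4% to 85.2%. Bases left unaligned counted as unmatched, so copies shifted against each other look less alike. The letters TGTGGT, the core of the motif bound by RUNX factors, which act in T cells and NK cells, were searched on both strands. They occurred in the promoters of 8 of the 10 genes, and in 14.0% of all 32851 promoters of this length. Gzmk and Fasl had no match. Gzmc, Gzmd, Gzme and Gzmf each had 2 matches, the upstream one on the opposite strand, at -174 and -108 in Gzmc, -174 and -112 in Gzmd, -175 and -113 in Gzme and -195 and -133 in Gzmf, counted from the start. The stretches from -200 to -81 are shown because these members moved apart from Gzmb in the tumors, with the matches in capitals (ACCACA is TGTGGT read on the other strand).
Gzmc (chr14:56234738-56234857, minus strand): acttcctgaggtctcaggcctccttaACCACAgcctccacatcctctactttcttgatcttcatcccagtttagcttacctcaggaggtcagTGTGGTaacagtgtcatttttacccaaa
Gzmd (chr14:56132674-56132793, minus strand): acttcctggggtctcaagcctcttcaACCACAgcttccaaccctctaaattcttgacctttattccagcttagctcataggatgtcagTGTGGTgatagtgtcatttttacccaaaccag
Gzme (chr14:56120706-56120825, minus strand): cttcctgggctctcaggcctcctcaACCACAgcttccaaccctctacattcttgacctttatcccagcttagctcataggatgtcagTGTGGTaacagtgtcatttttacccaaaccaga
Gzmf (chr14:56211488-56211607, minus strand): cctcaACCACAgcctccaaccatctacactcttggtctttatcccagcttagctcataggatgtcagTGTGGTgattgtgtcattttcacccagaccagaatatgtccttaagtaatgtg

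Gzma and Gzmb are shown from -120 to -1, again with TGTGGT or its reverse in capitals, and in Gzmb also the AP-1 motif TGANTCA.
Gzma (chr13:113100982-113101101, minus strand): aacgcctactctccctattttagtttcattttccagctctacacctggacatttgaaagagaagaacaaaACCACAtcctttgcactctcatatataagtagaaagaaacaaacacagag
Gzmb (chr14:56262335-56262454, minus strand): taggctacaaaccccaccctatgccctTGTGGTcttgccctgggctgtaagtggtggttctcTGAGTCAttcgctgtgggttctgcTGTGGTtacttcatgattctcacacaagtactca

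Gzmb had TGTGGT at -93 and -34 and Gzma had 1 match at -50. TGANTCA occurred in 1 of the 10 promoters, that of Gzmb (at -58), and in 6.75% of all promoters. The NFAT core GGAAAA was found in 2 of 10 (Gzma and Fasl, 20.4% of all), the T-box motif GGTGTGA in 2 of 10 (Gzmk and Nkg7, 3.33% of all) and TATAAA in 0 of 10 (12.4% of all), on both strands. No motif overlapped another in the stretches shown. A match describes letters and was not tested for binding.

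The likeness reaches into the transcripts, which matters for a method that reads their 3′ ends. Aligned over the last 500 bases, Gzmd and Gzme matched at 92.8% of these bases, with unaligned bases again counted as unmatched. The other pairs among Gzmd, Gzme, Gzmf and Gzmg matched at 84.6% to 89.2%, and Gzmc with any of these 4 at 56.2% to 59.8%. Of the 22-base windows of this stretch, the shortest read kept, 59.3% of Gzme, 51.8% of Gzmd, 30.5% of Gzmf and 9.81% of Gzmc occurred in another granzyme, against 0% for Gzma, Gzmb and Gzmk. For windows of 100 bases the share was 0% for every granzyme. Short reads can thus be placed on the wrong copy among Gzmd to Gzmg, so their single values are uncertain, which their sum avoids. The last part of Gzmf also lies opposite Gm4022 (16.4% of its exonic bases), and the strand setting of the counting is not given in the sources used here.

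The libraries held 5589151 to 26134241 reads on genes. The value given is the DESeq2-normalized count, a read count divided by a factor for the depth of the library, and 3 reads, taken as the lowest level that can be read, were worth 1.33 to 6.38 normalized counts. This covers counting error only, since no molecular identifiers are described. Replicate 3 of RAG1-/- day 23 was the deepest library and replicate 2 of the same group the shallowest. Rag1 itself had 1 to 12 reads in the 6 libraries labelled RAG1-/- and 1 read in 1 of the 6 wild-type tumors, so it goes against the labels. Which part of the gene the allele lacks is not given in the sources used here, and reads from a remaining 3′ end would check nothing. The T cell genes went with the labels: Cd3e, Cd3g and Cd8b1 had 0 reads in all 6 libraries labelled RAG1-/-, and 10 T cell markers summed to 6.67 to 41.9 normalized counts there and to 50.8 to 268 in the wild-type tumors. Directions below rest on the labels as given. The markers of colon epithelium were nearly absent from MC38 cells (4.28 and 7.82 summed over 7 genes).

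**Figure D1:**
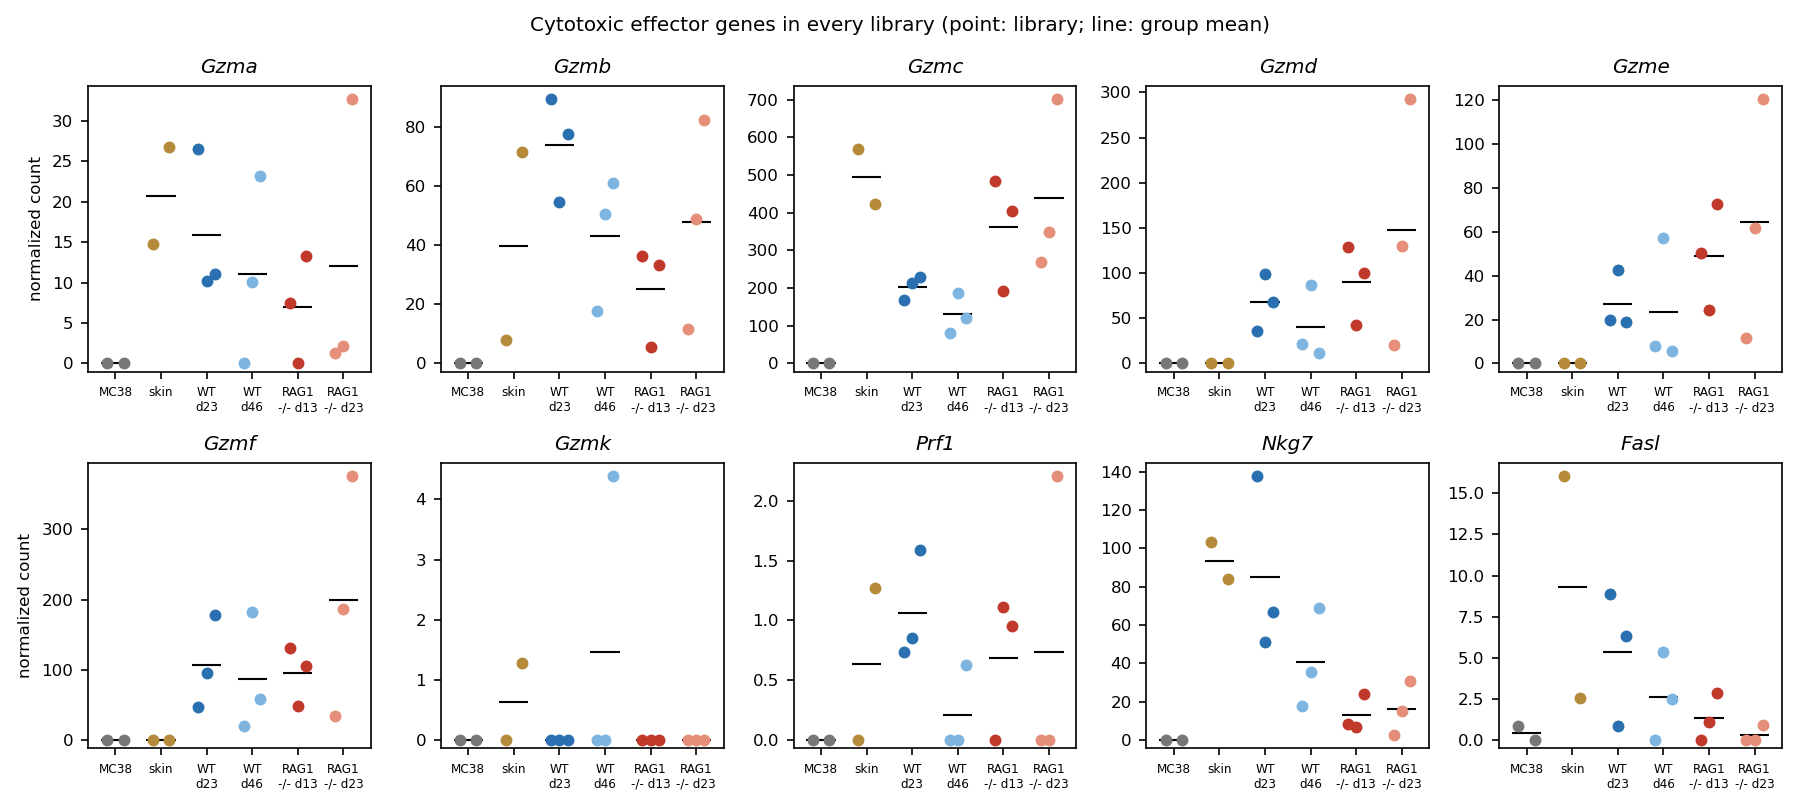
Normalized counts (vertical axis, linear, its own scale in each panel) of the 10 genes in MC38 cells, skin, wild-type (WT) tumors and tumors labelled RAG1-/-, with d for day. Each point is 1 library and each line a group mean; Gzmd, Gzme and Gzmf are at 0 in skin and above 0 in all 12 tumors, and Gzmk and Prf1 stay under 5 normalized counts in every library.

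Gzmc was the most abundant member in skin and in both kinds of tumor. It stood at 569 and 422 normalized counts in skin and at 0 in both MC38 libraries. The wild-type tumors held 169, 212 and 230 at day 23 and 82.1, 187 and 122 at day 46. The tumors labelled RAG1-/- held 485, 193 and 405 at day 13 and 268, 349 and 701 at day 23. The lowest RAG1-/- value fell among the wild-type values, and the other 5 lay above all 6 of them. At day 23 alone the 3 and 3 libraries did not overlap. Because each transcript gives reads only at its 3′ end, levels of different genes were compared without dividing by length.

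Over both days, wild-type tumors of day 23 and 46 are set against RAG1-/- tumors of day 13 and 23, so tumor age differs with the genotype, and only day 23 is matched. The wild-type mean of Gzmc was 167 ± 55.9 and the mean without T cells 400 ± 179 (SD, n = 6 each), which is 240% of the wild-type level. Leaving out 1 tumor at a time gave 204% to 265%, and day 23 alone gave 216%. The difference, wild-type minus RAG1-/-, was -1.22 (SE 0.27) on the log2(normalized count + 1) scale, with an adjusted p of 0.0529 by limma, just over the threshold of 0.05. The exact two-sided permutation test of this gene alone gave p = 0.00649. edgeR and DESeq2 on the recovered reads gave adjusted p of 0.0404 and 0.000243, so the call depends on the tool. In bulk tissue, fewer cells of a type and less RNA per cell cannot be told apart.

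Gzmd, Gzme and Gzmf had no read in skin or MC38 cells and reads in all 12 tumors. Gzmd stood at 36.1, 98.9 and 68.1 in wild-type tumors of day 23 and at 21.5, 87.3 and 11.3 at day 46. The tumors labelled RAG1-/- gave 129, 42.3 and 100 at day 13 and 20.9, 130 and 293 at day 23. The groups overlapped, and replicate 3 of RAG1-/- day 23 was the highest. Gzme ran from 5.65 over a median of 19.5 to 57.1 in wild-type tumors and from 11.8 over 56.0 to 120 in those labelled RAG1-/-. Gzmf ran from 20.5 over 76.9 to 182 in wild-type tumors and from 34.0 over 119 to 376 in those labelled RAG1-/-. Both ranges overlapped as for Gzmd.

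Mean levels without T cells were 221% of wild-type for Gzmd, 224% for Gzme and 152% for Gzmf, and at day 23 alone 218%, 237% and 187%. Leaving out 1 tumor moved these to between 157% and 266%, 174% and 299%, and 105% and 184%. The limma differences were -1.04 (SE 0.58), -1.20 (SE 0.59) and -0.52 (SE 0.57), and none passed the test (limma adjusted p 0.532, 0.455 and 0.787). Gzmg, the next gene of the cluster, is no member and had 0 reads in skin and a mean of 39.3 in wild-type and 92.7 in RAG1-/- tumors (limma adjusted p = 0.351).

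Gzmb and Gzma, the granzymes of the textbook killer cell, had lower means without T cells, and neither passed the test. Gzmb stood at 89.2, 54.6 and 77.6 in wild-type tumors of day 23 and at 17.6, 50.4 and 60.9 at day 46. The tumors labelled RAG1-/- gave 36.4, 5.56 and 33.3 at day 13 and 11.8, 48.9 and 82.2 at day 23. Skin held 8.04 and 71.4 and MC38 cells 0. The genotypes overlapped widely, and the highest RAG1-/- value was again replicate 3 of day 23. Mean Gzmb was 36.4 ± 27.6 against 58.4 ± 24.8 (SD, n = 6 each), which is 62.3% of the wild-type level. The difference of 0.95 (SE 0.51) did not pass the test (limma adjusted p = 0.510).

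Gzma was low, from 0 over a median of 10.7 to 26.6 in wild-type tumors and from 0 over 4.81 to 32.7 in those labelled RAG1-/-. Of the 6 libraries labelled RAG1-/-, 3 lay over the level of 3 reads, against 5 of 6 wild-type ones. Its mean without T cells was 70.2% of wild-type and 35.9% without the highest library, replicate 3 of RAG1-/- day 23. The difference of 0.85 (SE 0.89) did not pass (limma adjusted p = 0.778).

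Of the 7 tested members, Nkg7 had the lowest mean relative to wild-type. It stood at 138, 51.1 and 66.5 in wild-type tumors of day 23 and at 17.6, 35.6 and 69.1 at day 46. The tumors labelled RAG1-/- gave 8.56, 6.67 and 23.8 at day 13 and 2.62, 14.9 and 30.9 at day 23. Skin held 103 and 84.1. At day 23 the genotypes did not overlap, and over both days the 2 highest RAG1-/- values overlapped the lowest wild-type one. Mean Nkg7 was 14.6 ± 10.9 against 63.0 ± 41.5 (SD, n = 6 each), or 23.2% of wild-type, and 19.0% at day 23 alone. The difference of 2.13 (SE 0.52) had a limma adjusted p of 0.0870 and an exact two-sided permutation p of 0.00866. It passed with DESeq2 (adjusted p = 0.00659) and not with edgeR (adjusted p = 0.125), and with limma it passed without replicate 3 of RAG1-/- day 23 (adjusted p = 0.0288).

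Fasl, Prf1 and Gzmk were too low to be tested. Fasl reached 0.852 to 8.85 at day 23 and 0 to 5.37 at day 46 in wild-type tumors, 0 to 2.86 in those labelled RAG1-/-, and 16.1 and 2.55 in skin. It lay over the level of 3 reads in 4 of 6 wild-type and 0 of 6 RAG1-/- tumors, and the exact two-sided permutation test of the 6 and 6 tumors gave p = 0.0931. Gzmk had 7 reads in 1 wild-type tumor of day 46 (4.39 normalized counts), 1 read in 1 skin library and 0 in all 6 libraries labelled RAG1-/-. Prf1 had 0 or 1 read in all libraries but replicate 3 of RAG1-/- day 23, which had 5 (2.21 normalized counts). No difference in Gzmk or Prf1 was detectable at this depth.

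**Figure D2:**
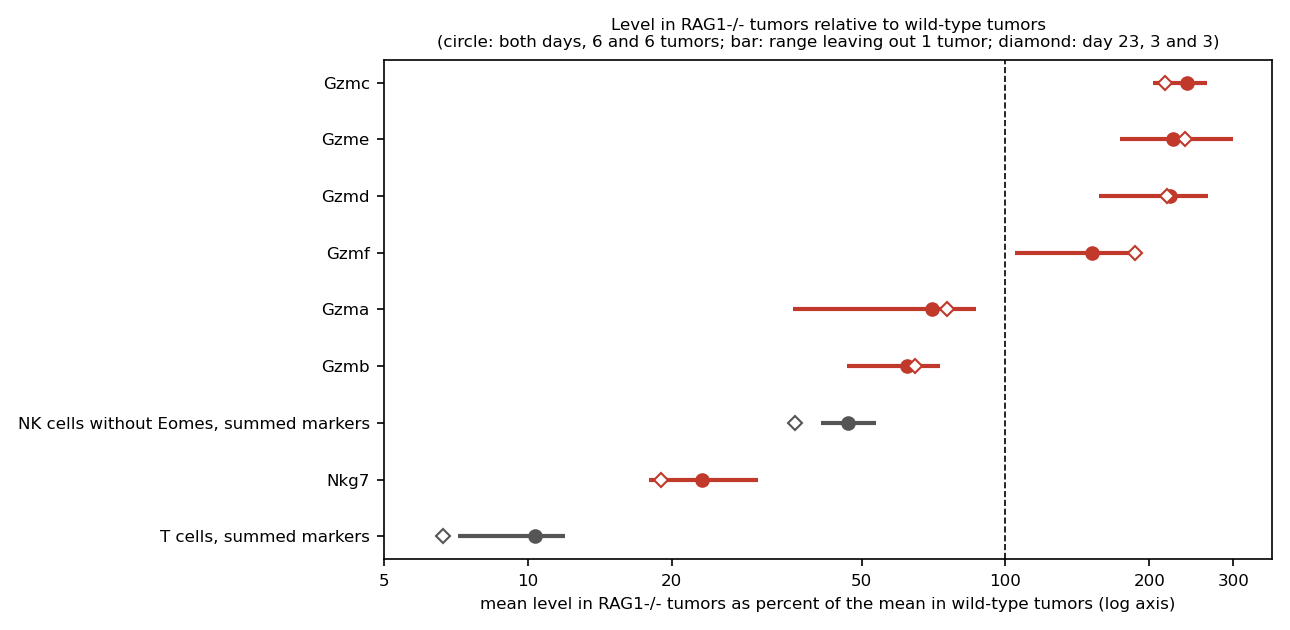
Mean level in tumors labelled RAG1-/- as a percent of the mean in wild-type tumors (horizontal log axis) for the 6 granzymes and Nkg7 that were tested and for 2 summed marker lists, with circles for both days, bars for the range when 1 tumor is left out and diamonds for day 23 alone. Gzmc, Gzmd, Gzme and Gzmf lie right of the 100% line, and Gzma and Gzmb left of it at 70.2% and 62.3%. Nkg7 lies at 23.2%, between the NK list without Eomes at 46.8% and the T cell list at 10.3%.

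Across the list, 7 of the 10 genes passed the filter of a mean of 5 normalized counts over the 12 tumors. With limma 0 of these 7 were called between the genotypes over both days, where 0.712% of the 14746 genes tested were called. At an unadjusted p under the threshold there were 2, Gzmc and Nkg7, where 11.4% of all genes were. edgeR called 1 (Gzmc; 0.753% of all) and DESeq2 called 2 (Gzmc and Nkg7; 2.00% of all). The genotypes did not overlap for 0 of the 10 genes (0.983% of all genes tested). The median difference of the 7 was -0.52, against 0.0065 over all genes tested. At day 23, 0 of 7 were called by limma (0.278% of all), edgeR (0.149% of all) or DESeq2 (1.62% of all). The 2 with an unadjusted limma p under the threshold (11.2% of all) were Gzmc and Nkg7. These 2 members did not overlap, in opposite directions, as did 16.1% of all genes. With 3 against 3 libraries the exact permutation test cannot go below p = 0.10.

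The marker lists of the cells that could hold this RNA moved with the genotype to different extents. Of the 7 T cell genes tested, 5 were higher in wild-type tumors (limma adjusted p under the threshold), where 0.570% of all genes were, and the sum of the list in tumors labelled RAG1-/- was 10.3% of wild-type. For NK cells 1 of 7 was higher, Klrc1, an inhibitory receptor subunit that CD8 T cells also carry (difference 3.05, limma adjusted p = 0.0115). The sum of the whole NK list in tumors labelled RAG1-/- was 65.5% of wild-type. Eomes, a factor of NK cells, was read in MC38 cells themselves (190 and 235 normalized counts), so the list was also summed without it. The other 10 NK genes summed to 62.8 to 145 in tumors labelled RAG1-/- and 65.5 to 361 in wild-type ones, a mean of 46.8%. This sum hides opposite directions. Klrb1b had the largest gap, with 41.5 ± 17.7 against 113 ± 55.9 (SD, n = 6 each; difference 1.31, limma adjusted p = 0.190), while 5 of the 10, Ncr1, Klrb1c, Klri2, Klra7 and Klra8, had higher means in RAG1-/- tumors. None of the 11 was at 0 in either genotype, and the most specific receptor genes were low, Ncr1 with a mean of 4.17 in RAG1-/- and 1.22 in wild-type tumors and Klrb1c with 6.16 and 3.14. Klrd1, which pairs with Klrc1, stood at 21.6 and 31.3 (difference 0.41, limma adjusted p = 0.781). The summed mast cell genes ranged from 30.1 to 225 and 31.7 to 370, and the summed macrophage genes from 3176 to 5553 and 3766 to 6786. Which cells held the granzyme RNA was not tested.

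Ratios between members within a library do not depend on the depth or the size factor, apart from the added 1. For the 7 tested members all 21 pairs were formed as log2 ratios of normalized count + 1, after the levels had been seen. The genotypes differed in 8 of the 21 (two-sided exact permutation test, Benjamini-Hochberg adjusted over the 21 ratios), and in 4 of them the 6 and 6 tumors did not overlap. The 8 were Gzmb or Nkg7 set against each of Gzmc, Gzmd, Gzme and Gzmf. They reuse the same values of Gzmb or Nkg7 against genes that correlate with each other, so they are not 8 separate results. Ratios between other genes were not formed, so no share over all genes can be set beside these counts. No pair among Gzmc, Gzmd, Gzme and Gzmf passed.

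Gzmc exceeded Nkg7 in every tumor. The log2 ratio of Gzmc to Nkg7 ran from 0.29 over a median of 1.90 to 2.36 in wild-type tumors and from 4.03 over 4.56 to 6.22 in those labelled RAG1-/-. The 2 sets lay apart, with a mean difference of -3.35 (exact permutation p = 0.00217, adjusted p = 0.0114), and 0.00217 is the smallest p that 6 against 6 can give. In skin the ratio was 2.45 and 2.31, between the 2 genotypes' means of 1.57 and 4.92. Nkg7 lay over the level of 3 reads in 5 of 6 tumors labelled RAG1-/-. The remaining tumor, with 2.62 normalized counts of Nkg7, had the ratio of 6.22, so that value is uncertain.

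Gzmb was set against Gzmc in the same way. The log2 ratio of Gzmb to Gzmc ran from -2.16 over -1.71 to -0.91 in wild-type tumors and from -4.89 over -3.63 to -2.81 in those labelled RAG1-/-. These sets also lay apart, by 2.17 (exact permutation p = 0.00217, adjusted p = 0.0114). The ratio of Gzmb to Nkg7 differed by -1.18 and did not pass after adjustment (exact permutation p = 0.0260, adjusted p = 0.0545). At day 23 alone the Gzmc to Nkg7 ratio differed by -3.68 and the Gzmb to Gzmc ratio by 1.96, each with the smallest possible exact permutation p of 0.10.

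**Figure D3:**
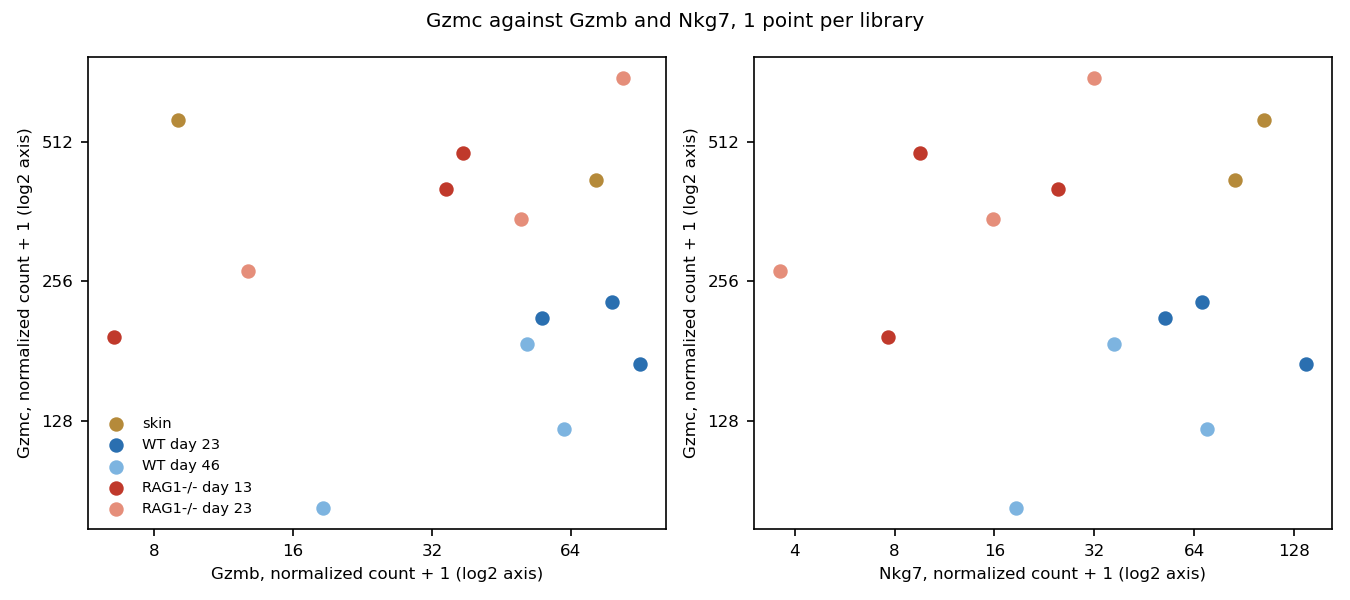
Gzmc (vertical axis) against Gzmb (left) and Nkg7 (right), both as normalized count + 1 on log2 axes, with 1 point per library of skin, wild-type (WT) tumors and tumors labelled RAG1-/-. At a given level of Gzmb the RAG1-/- tumors lie higher in Gzmc than the wild-type tumors. For Nkg7 the genotypes share little of the range, with only the lowest wild-type tumor among the RAG1-/- levels. Gzmc rises with Gzmb within each genotype (r = 0.77 in wild-type and 0.93 in RAG1-/- tumors).

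The make-up of the granzyme reads shows the same contrast as shares. The reads of 10 granzyme genes, the 7 members and Gzmg, Gzmm and Gzmn, were summed in each library, 162 to 4201 reads in the tumors. Gzmb held 7.59% to 20.8% of them in wild-type tumors (median 11.8%) and 1.60% to 5.58% in those labelled RAG1-/- (median 4.06%), so the ranges did not overlap. In single libraries the exact 95% binomial interval of this share was as wide as 6.72% to 17.0% (18 of 162 reads, replicate 1 of wild-type day 46) and as narrow as 3.83% to 5.09% (186 of 4201 reads, replicate 3 of RAG1-/- day 23). Gzmc to Gzmg together held 69.3% to 90.8% in wild-type and 93.6% to 98.1% in RAG1-/- tumors. The sum of Gzmd to Gzmg, which is free of misplacement among these copies, held 27.7% to 62.7% and 26.2% to 55.9% and overlapped throughout. Skin differed from all tumors in having 0% of Gzmd to Gzmg, with 96.2% and 80.5% in Gzmc and 1.36% and 13.6% in Gzmb.

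**Figure D4:**
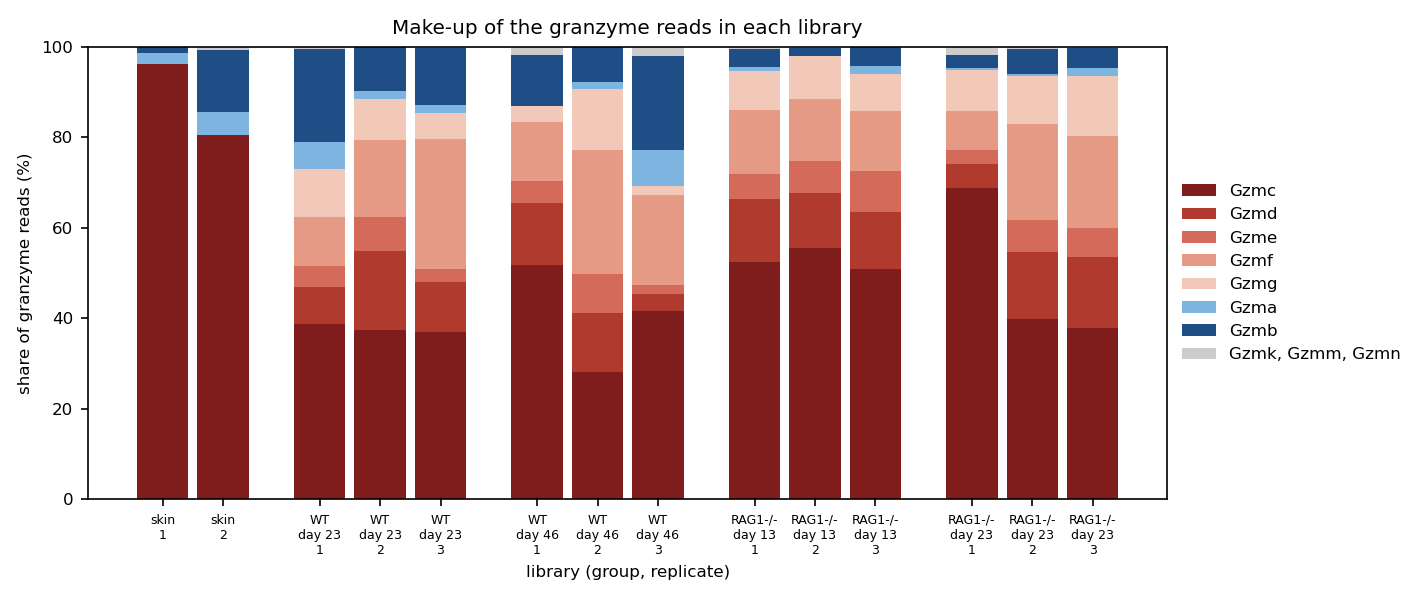
Share of the granzyme reads (vertical axis, percent) held by each gene in the 2 skin libraries and the 12 tumors, with red tones for Gzmc to Gzmg, blue tones for Gzma and Gzmb, and grey for Gzmk, Gzmm and Gzmn. The red tones fill 93.6% to 98.1% of each bar in tumors labelled RAG1-/- and 69.3% to 90.8% in wild-type tumors, and skin holds Gzmc without Gzmd to Gzmg.

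Levels moved together in 2 sets over the 12 tumors. On the log2 scale, Gzma, Gzmb and Nkg7 correlated with each other (Pearson r 0.72 to 0.86), and so did Gzmc, Gzmd, Gzme and Gzmf (r 0.73 to 0.96). Gzmb with Nkg7 had r = 0.81 and Spearman's rho = 0.86 (permutation p = 0.00186 and 0.00066, adjusted over the 21 pairs 0.00558 and 0.00546). Without the 2 tumors farthest from the median of Gzmb, r was 0.69. Within the wild-type and the RAG1-/- tumors it was 0.93 and 0.77. Gzmd with Gzme had r = 0.96 and rho = 0.92 (permutation p = 4e-05 and 6e-05, adjusted 0.00084 and 0.00126). Without the 2 tumors farthest from the median of Gzmd, r was 0.92, but these genes share sequence. Gzmc with Gzmf had r = 0.73 over all 12 (permutation p = 0.00694, adjusted 0.0182) and rho = 0.62 (permutation p = 0.0352, adjusted 0.0822). Its pooled r fell to 0.40 without the 2 tumors farthest from the median of Gzmc. Within the wild-type tumors r was 0.87 and within the RAG1-/- tumors 0.86.

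Between the sets the 12 pooled r ran from -0.26 (Gzmc with Nkg7) to 0.60 (Gzmb with Gzmf, permutation p = 0.0447, adjusted 0.094), and none passed after adjustment. Pooled r also hold the shift between genotypes, and the permutations moved tumors across them. Within the wild-type and the RAG1-/- tumors Gzmc with Nkg7 had r = 0.53 and 0.71. Gzmb with Gzmc had 0.21 pooled but 0.77 and 0.93 within. Within the wild-type tumors the 12 ran from 0.01 to 0.77, so the 2 sets describe pooled values. Gzmd with Nkg7 had r = 0.01 and rho = -0.15 (permutation p = 0.971 and 0.653, both 0.762 or above after adjustment), with r = 0.01 within the 6 wild-type tumors and 0.89 within the 6 labelled RAG1-/-. In the RAG1-/- tumors all 21 pairs had an r of 0.71 or more, where replicate 3 of day 23 was highest for all 7 genes. Whether the genotypes differ in these correlations was not tested.

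**Figure D5:**
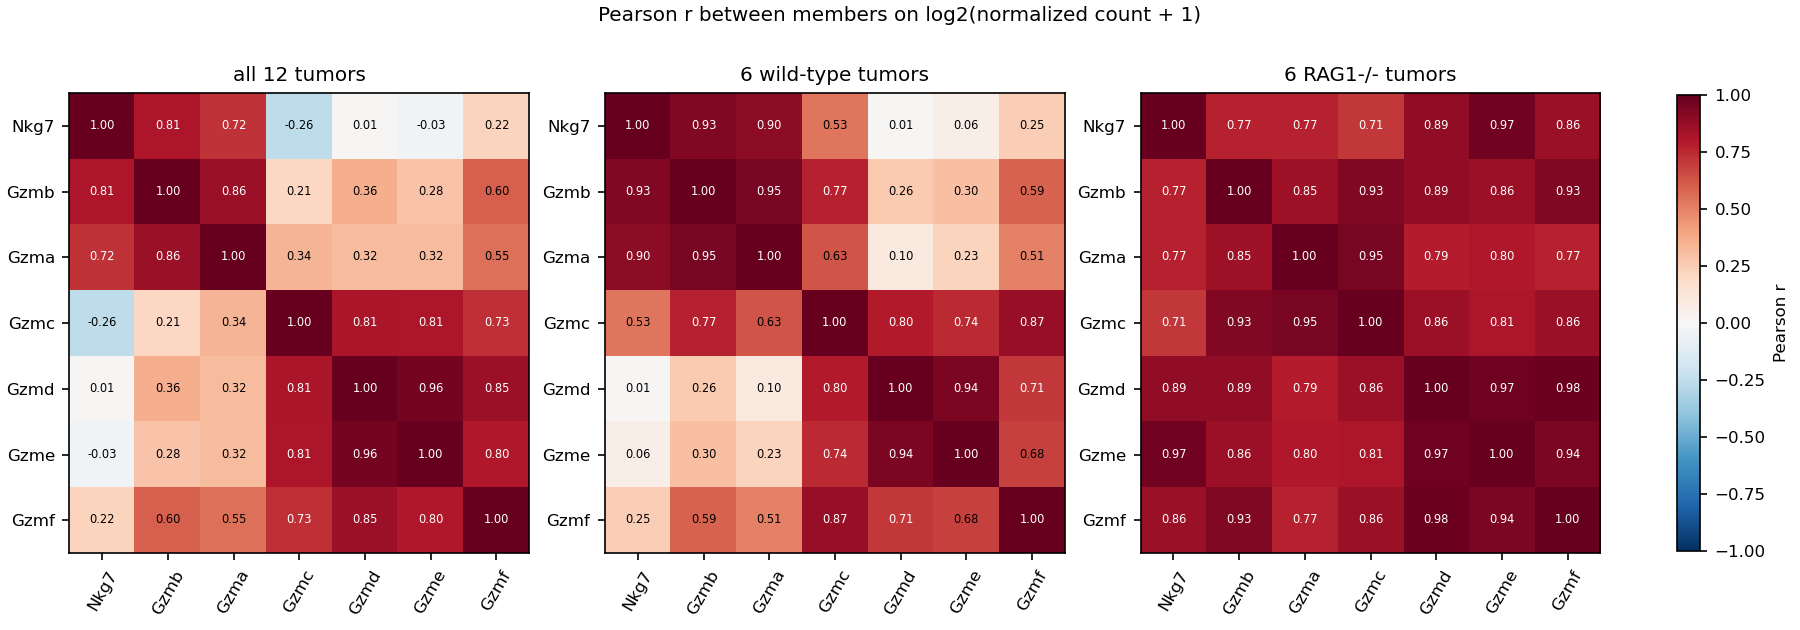
Pearson r on log2(normalized count + 1) between the 7 tested members over all 12 tumors, the 6 wild-type tumors and the 6 tumors labelled RAG1-/-; both axes list the genes, colour runs from -1 (blue) to 1 (red) and each cell prints r. Over all 12 tumors Gzma, Gzmb and Nkg7 form 1 block and Gzmc to Gzmf another. Within the wild-type tumors Gzmb with Gzmc lies at 0.77, and in the RAG1-/- tumors all pairs lie at 0.71 or above.

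Other genes with a like course were looked up for Gzma, Gzmb and Nkg7 over the 12 tumors, as a description. The nearest to Nkg7 were AW112010 (r = 0.95), Il2rb, the shared receptor chain of interleukin 2 and interleukin 15 (r = 0.93), and Cd74, the invariant chain of MHC class II (r = 0.93). For Gzmb they were Pmel (r = 0.91), Apod (r = 0.88) and the NK receptor gene Klrd1 (r = 0.87). For Gzma they were Tox4 (r = 0.94), Itm2c and Ndufa3 (both r = 0.88).

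Against skin, Gzmd, Gzme and Gzmf set the tumors apart in both genotypes. With 0 reads in skin, the level of 3 reads in 1 library (4.02 normalized counts) was used as the floor. Gzmd was at least 13.4-fold higher in wild-type and at least 29.6-fold higher in RAG1-/- tumors. For Gzme the bounds were 6.31-fold and 14.1-fold, and for Gzmf 24.1-fold and 36.6-fold (limma adjusted p at most 0.000349 for the 3 genes in both genotypes). These 3 of 7 tested members were called higher, where 23.7% of all genes were for wild-type and 24.7% for RAG1-/- tumors. With 0 reads in skin and in MC38 cells, the 3 passed the filter only through the tumors. They could therefore not be lower in tumors, and these shares are no like background.

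The member called lower than in skin was not the same in the 2 genotypes. In wild-type tumors it was Gzmc, with 167 against 496 ± 104 (SD, n = 2) in skin (difference -1.63, SE 0.39, limma adjusted p = 0.00208; lower for 34.5% of all genes). Without skin replicate 1 this p was 0.0537. In tumors labelled RAG1-/- it was Nkg7, with 14.6 against 93.6 ± 13.4 (difference -2.95, SE 0.72, limma adjusted p = 0.00229; lower for 36.1% of all genes), while Gzmc at 400 did not pass (difference -0.41, limma adjusted p = 0.380). That the genotypes differ in these contrasts is not shown by the calls themselves. The median difference from skin over all genes was -0.17 and -0.20. Skin held other cells as well, with epidermal markers summing to 305548 and 307257 normalized counts, against 228 to 1627 in tumors, and mast cell markers to 2872 and 1675. T cell markers summed to 391 and 532 in skin, above every tumor, and their part in these results was not tested.

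MC38 cells held none of this RNA apart from 1 read of Fasl. With the floor of 3 reads in a library (2.93 normalized counts), Gzmc was at least 56.9-fold higher in wild-type and at least 136-fold higher in RAG1-/- tumors. The bounds for Nkg7 were 21.5-fold and 4.97-fold, and for Gzmb 19.9-fold and 12.4-fold. The 7 tested members had 0 reads in MC38 cells and passed the filter only through tumors and skin. They could therefore not be lower in tumors, and the shares of all genes are no like background. By limma 6 of the 7 tested members were higher in wild-type tumors than in MC38 cells (16.7% of all genes) and 6 of 7 in RAG1-/- tumors (14.2% of all). The exception in both was Gzma (limma adjusted p = 0.0538 and 0.167).

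No member passed the test for a change with time. From day 23 to day 46 all 7 tested members had a lower mean in wild-type tumors, with differences of -0.61 to -1.27, and from day 13 to day 23 all 7 had a higher one in RAG1-/- tumors, with differences of 0.0045 to 0.89, of which those of Gzme and Nkg7 turned negative under other scalings. With limma and with edgeR 0 of all genes passed (0%) in either time comparison. At an unadjusted p under the threshold limma had 1261 and 1722 genes, and DESeq2 called 41 and 206. The difference between the 2 time changes, whose days differ, was called for 0 members and 0 genes (0%) with limma and with edgeR. DESeq2 called it for 0 members and 58 genes (0.394% of those it tested).

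The genes around the members were followed as lists. For packing and processing of granzymes 0 of 9 tested genes passed between the genotypes, among them Srgn, the proteoglycan core of the granule (1016 in RAG1-/- and 1189 in wild-type tumors), and Ctsc, the protease that activates granzymes (2931 and 3000). For granule release 0 of 8 passed, and Unc13d, which primes granules for fusion, had a difference of 0.76 (limma adjusted p = 0.239). In the death receptor and granzyme substrate list 0 of 11 passed, with a median difference of 0.10. At an unadjusted limma p under the threshold the packing list had 2 of 9 and the release list 1 of 8 (Unc13d), against 11.4% of all genes. The 2 of the packing list went opposite ways, Ctsl lower and Lamp1 higher in wild-type tumors.

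Among the genes that induce effectors, 3 of 12 were higher in wild-type tumors and 0 lower, against 0.570% and 0.142% of all genes. Il12rb1, a chain of the interleukin 12 receptor, stood at 66.8 ± 26.2 against 16.4 ± 8.33 (difference 1.98, limma adjusted p = 0.0170). Il2rg, the common cytokine receptor chain, stood at 420 ± 102 against 215 ± 39.1 (difference 0.95, limma adjusted p = 0.0115). Il15, the cytokine on which NK cells depend, stood at 99.2 ± 20.9 against 51.6 ± 5.16 (difference 0.91, limma adjusted p = 0.0311; SD and n = 6 for all 3).

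Of the 6 serpin genes that inhibit granzymes or related proteases, 1 was higher in wild-type tumors and 0 lower, against 0.570% and 0.142% of all genes. It was Serpina3g, with 81.4 ± 60.1 against 12.6 ± 10.5 (SD, n = 6; difference 2.75, limma adjusted p = 0.0308). Serpinb9, the mouse inhibitor of granzyme B, stood at 420 and 335 (difference 0.31, limma adjusted p = 0.362). The median difference of the 6 was 1.44. The lists were written with earlier results of these data known.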

How the data were processed

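RNA of MC38 cells, skin and tumors was prepared with QuantSeq 3′ mRNA-Seq and sequenced on an Ion Proton. The authors trimmed reads with Cutadapt and Trimmomatic, removed reads under 22 nucleotides, aligned with STAR and then Bowtie2 to mm10, kept primary alignments of multi-mapping reads and counted with HTSeq. The deposited signal is this count per gene divided by DESeq2 size factors. Versions, annotation and strand setting are not given in the sources used here. In all 16 libraries 100% of values were whole multiples of the smallest (tolerance 0.001), so reads were recovered. Replicates were no copies (chi-square per degree of freedom 8.42 to 87.2). A second table, whose 6 columns match no label, was not used here.

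limma 3.58.1 (R 4.3.3) was fitted to log2(normalized count + 1) where the gene's mean reached 5, with a trend, two-sided, Benjamini-Hochberg adjusted, with 12 tumors in 4 groups or 16 libraries in 6 groups. On this scale low genes change less. edgeR 4.0.16 and DESeq2 1.42.0 on recovered reads, other pseudocounts (0.1, 5), filters, scalings, no trend, a replicate block and left-out replicates were alternatives. Scripts were tested on simulated data. Exact permutation tests used SciPy. Members, lists and tests were chosen with earlier results of these data known. Named genes were the members, listed genes passing the test (at most 5 a list) and the 3 nearest to Gzma, Gzmb and Nkg7; Prf1 was too low for this, and further listed genes were named after their values were seen. Same-numbered tumors correlated at -0.24 to 0.25 (18 pairs, 4 over 0.1), so numbers do not pair tumors.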

Additional observations from a re-analysis of the deposited data

Results flagged for a closer look

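The share of Gzmc to Gzmg among the granzyme reads was 98.1% in replicate 2 of RAG1-/- day 13, and the next of the 6 tumors labelled RAG1-/- had 94.97%. This gap was 0.702 of the range of the group and larger than Dixon's limit for 6 samples. The library had 313 granzyme reads, of which 307 were on Gzmc to Gzmg, 5 on Gzmb and 0 on Gzma, and the exact 95% binomial interval of the share was 95.9% to 99.3%. It was the 1 library standing apart in 24 sets of 6 tumors examined (7 members and 5 shares in each genotype), where chance gives about 1 in 20.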

How the results depend on the processing

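Over both days, the count of members higher in wild-type tumors rose from 0 to 1 with DESeq2, and that of members lower from 0 to 1 with edgeR and with DESeq2; each ranged from 0 to 1 with 1 replicate left out. Gzmc passed without wild-type day 46 replicate 2 (adjusted p = 0.0411), RAG1 day 13 replicate 2 (0.0256) or RAG1 day 23 replicate 1 (0.0481), and Nkg7 without RAG1 day 23 replicate 3 (0.0288), all by limma. Over all alternatives the adjusted p ran from 0.000243 to 0.207 for Gzmc and from 0.00659 to 0.229 for Nkg7. For wild-type tumors and skin, 1 member was lower, and 0 to 1 with 1 replicate left out. For RAG1-/- tumors and skin, 1 was lower, 2 with no filter (adding Fasl, limma adjusted p = 0.0380) and 2 with the replicate block, which added Gzma (limma adjusted p = 0.0493); the block changed no other call, and numbers do not pair tumors. Gzma against MC38 cells passed in 4 of 18 alternatives for wild-type and 1 of 18 for RAG1-/- tumors. The cause was not tested. Over both days DESeq2 called 283 genes where limma called 105.

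Differences that changed sign had not passed in any setting. With 1 replicate left out, at day 23 Gzmd ran from -1.62 to 0.25 and Gzmf from -1.50 to 0.21. From day 23 to 46 in wild-type tumors Gzma ran from -2.22 to 0.077 and Gzmf from -1.39 to 0.15. From day 13 to 23 in RAG1-/- tumors Gzma ran from -0.88 to 1.10, Gzmc from -0.13 to 0.56, Gzmd from -0.63 to 1.24, Gzme from -0.69 to 0.93, Gzmf from -0.12 to 1.59 and Nkg7 from -0.69 to 0.88. Against skin Gzmb ran from -0.44 to 2.56 in wild-type and from -1.39 to 1.61 in RAG1-/- tumors. In the RAG1-/- time comparison Gzme was -0.0074 with a pseudocount of 0.1, -0.020 with upper quartile scaling and -0.11 with total scaling, and Nkg7 was -0.050, -0.019 and -0.097. For RAG1-/- tumors and skin Gzmb was -0.22 with the replicate block, -0.024 with edgeR and -0.19 with DESeq2. For both days, a fit on only the groups compared is the main one and was not repeated.

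The 8 ratios between members that passed kept their direction with each tumor left out in turn. Their exact permutation p was then at most 0.0173, without the adjustment over the ratios used in the main test. Day 23 alone cannot pass. These alternatives, and shares without Gzmg, Gzmm and Gzmn, were added after seeing the data. Levels under 3 reads limit Fasl, Prf1 and Gzmk, and also the lowest RAG1-/- value of Nkg7.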

Other observations

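The granzymes outside the list differed among themselves. Gzmm, which lies on chromosome 10, away from the cluster, had at most 6 reads in any tumor, with a mean of 3.14 normalized counts in tumors labelled RAG1-/- and 1.44 in wild-type ones, and it was the granzyme with reads in MC38 cells (2 reads in 1 library). Gzmn, within the cluster beside Gzmg, had 1 read over all 12 tumors and 0 in skin, while its neighbours Gzmg and Gzmf had reads in every tumor. The 3 genes nearest in course to Gzmc over the 12 tumors, looked up after its values were seen, were Gzmg (r = 0.86), Gm15398 (r = 0.86) and Gatad1 (r = 0.82).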
